A study of Mus musculus with 24 samples.

Results

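The 6 genes described here encode the protein uptake machinery of the proximal tubule: the receptors megalin (Lrp2) and cubilin (Cubn), the membrane anchor amnionless (Amn), the adaptor Dab2, the endosomal chloride-proton exchanger Clcn5 and the folate receptor Folr1. They were taken by name from the deposited table, in which each has 1 row among 40750 genes, and were followed through all 24 libraries. Each of the 6 passed the filter on low values. The kidneys came from male Kim1-GCE+/-; EGFPL10a+/- mice on a mixed background, 8 to 10 weeks old, all given tamoxifen 6 h before and 24 h after surgery. Mice had sham surgery with no clamp, or 20 min of clamping of both renal pedicles with harvest at day 2, 7 or 14. Each of these 4 groups is counted as 3 mice. Bound and unbound libraries of equal number are taken as 1 mouse, which the labels do not state. Ribosomes were pulled from the kidney homogenate with beads against GFP. The RNA on the beads is the bound fraction, and the unbound fraction stands for total kidney. GCE, a tamoxifen-dependent Cre, is driven by Kim1 (Havcr1), a gene that injured tubule cells turn on, and EGFPL10a is a Cre-dependent, GFP-tagged ribosomal protein, so the pull-down is aimed at cells in which Kim1 was active while tamoxifen was present. The sham mice carried both alleles and received tamoxifen as well.

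Megalin is a giant receptor of the LDL receptor family that binds albumin, vitamin carriers, hormones and many small filtered proteins at the brush border of the proximal tubule. Cubilin has no membrane-spanning part. It reaches the surface bound to amnionless and is taken in with amnionless and megalin. Dab2 links the tail of megalin to clathrin, Clcn5 supports acidification of the endosome, where receptors release their cargo and return to the surface, and Folr1 is a lipid-anchored receptor that takes folate back from the filtrate.

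Lrp2 and Cubn had the most similar profiles of the 6 genes, so the 250 bases before the RefSeq start of each are shown (GRCm38.p6, minus strand, 5′ to 3′), with GC boxes in capitals. The Lrp2 window is chr2:69586030-69586279 and the Cubn window is chr2:13491877-13492126.
Lrp2: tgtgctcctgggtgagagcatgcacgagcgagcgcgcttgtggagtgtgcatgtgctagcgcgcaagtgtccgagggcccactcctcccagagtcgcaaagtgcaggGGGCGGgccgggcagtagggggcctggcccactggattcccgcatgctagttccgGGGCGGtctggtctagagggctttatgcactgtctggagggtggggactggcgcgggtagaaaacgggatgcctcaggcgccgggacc
Cubn: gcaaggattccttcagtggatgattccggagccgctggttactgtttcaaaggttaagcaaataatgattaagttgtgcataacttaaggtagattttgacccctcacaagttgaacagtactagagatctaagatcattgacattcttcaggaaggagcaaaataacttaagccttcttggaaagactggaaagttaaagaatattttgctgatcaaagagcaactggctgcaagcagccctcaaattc
The Lrp2 window is 66.4% G and C and holds 2 GC boxes (GGGCGG on either strand, which 32.7% of 32817 windows of all genes hold). The Cubn window is 39.6% G and C, against a median of 52.4% over all windows, and holds none. Neither holds an HNF1 motif (GTTAAT, in 6.44% of windows), an HNF4 core (CAAAGTCCA, 0.384%) or a TATA box (TATAAA, 12.4%), each searched on both strands. These matches describe letters in a short window and nothing about binding.

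Levels are RPKM, reads per kilobase of exon and scaled to library size, and may be set against each other within a library. Folr1 was the most abundant of the 6 in 24 of 24 libraries, and Cubn or Clcn5 was the least. By the GENCODE M21 annotation of GRCm38, matched on Ensembl identifier, the loci are as follows. Lrp2 (ENSMUSG00000027070) lies at chr2:69424340-69586065 on the minus strand with 16701 exonic bases. Cubn (ENSMUSG00000026726) lies at chr2:13276338-13491813 on the minus strand with 14935. Amn (ENSMUSG00000021278) lies at chr12:111271095-111276426 on the plus strand with 1843. Dab2 (ENSMUSG00000022150) lies at chr15:6299788-6440712 on the plus strand with 7342. Clcn5 (ENSMUSG00000004317) lies at chrX:7153810-7319358 on the minus strand with 11452, and Folr1 (ENSMUSG00000001827) at chr7:101858331-101870788 on the minus strand with 2297. The values stand for many reads: the smallest implied number in any library was 748 for Amn, and 1085 or more for each of the others. Gene models on the opposite strand, Gm13270 and Gm18888, share 2.46% of the Cubn exons and 2.87% of the Dab2 exons. The sources used here do not say whether counting used strand.

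Libraries held an inferred 15.72 to 24.66 (median 20.23) in units of 1e+06 reads. The labels call the mice biological replicates. Day 14 mouse 3 stood apart: its bound library correlated with the mean of the other day 14 bound libraries at 0.901, where those 2 correlated at 0.975, and its unbound library at 0.941 against 0.980. In bulk RNA, fewer cells of a type and less RNA per cell cannot be told apart. None of the 15 proximal tubule markers was at 0 in any group, and their summed level ran from 8817 to 17440 RPKM in sham bound RNA and from 20730 to 34110 in sham unbound RNA. In sham mice 11 of these 15 markers were lower in bound than in unbound RNA (median log2 difference -1.30), while 5 of 7 markers of podocytes and parietal cells were higher and 1 lower (median 2.31), where 27.6% of all tested genes differed and 12.9% were lower. 

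Lrp2 was lower at day 2 in both fractions and stayed lower at day 7 in bound RNA. Bound libraries 1, 2 and 3 held 40.3, 62.3 and 48.8 RPKM in sham mice, 25.6, 17.2 and 10.9 at day 2, 25.7, 26.7 and 16.1 at day 7, and 27.4, 40.3 and 22.3 at day 14. The 9 bound libraries after injury all lay below the 3 sham libraries, though day 14 mouse 2 came within 0.1 RPKM of the lowest. How many of all tested genes separated without overlap was not counted for any comparison. Such separations, here and below, therefore describe the values only. The fitted log2 change in bound RNA was -1.53 at day 2 (SE 0.34, adjusted p = 0.0038), a fall of 65.3%, and -1.14 at day 7 (SE 0.34, adjusted p = 0.0213). At day 14 it was -0.76, which did not pass (adjusted p = 0.138), and with libraries scaled to equal RPKM totals it was -1.10 and passed (adjusted p = 0.0431). Unbound libraries held 50.2, 76.3 and 45.1 RPKM in sham mice and 32.2, 18.3 and 24.2 at day 2, again without overlap, and the log2 change was -1.18 (adjusted p = 0.0241). They held 37.2, 39.4 and 30.5 at day 7 and 41.6, 51.3 and 20.4 at day 14, and neither day passed (log2 changes -0.64 and -0.65, adjusted p = 0.384 and 0.281). The day 7 bound call was lost without sham bound library 2 (log2 change -0.98, adjusted p = 0.0915) or day 7 bound library 3 (-0.91, 0.110). The day 2 unbound call was lost without sham unbound library 2 (-0.96, 0.112), day 2 unbound library 2 (-0.98, 0.136) or day 2 unbound library 3 (-1.18, 0.0638).

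**Figure D1:**
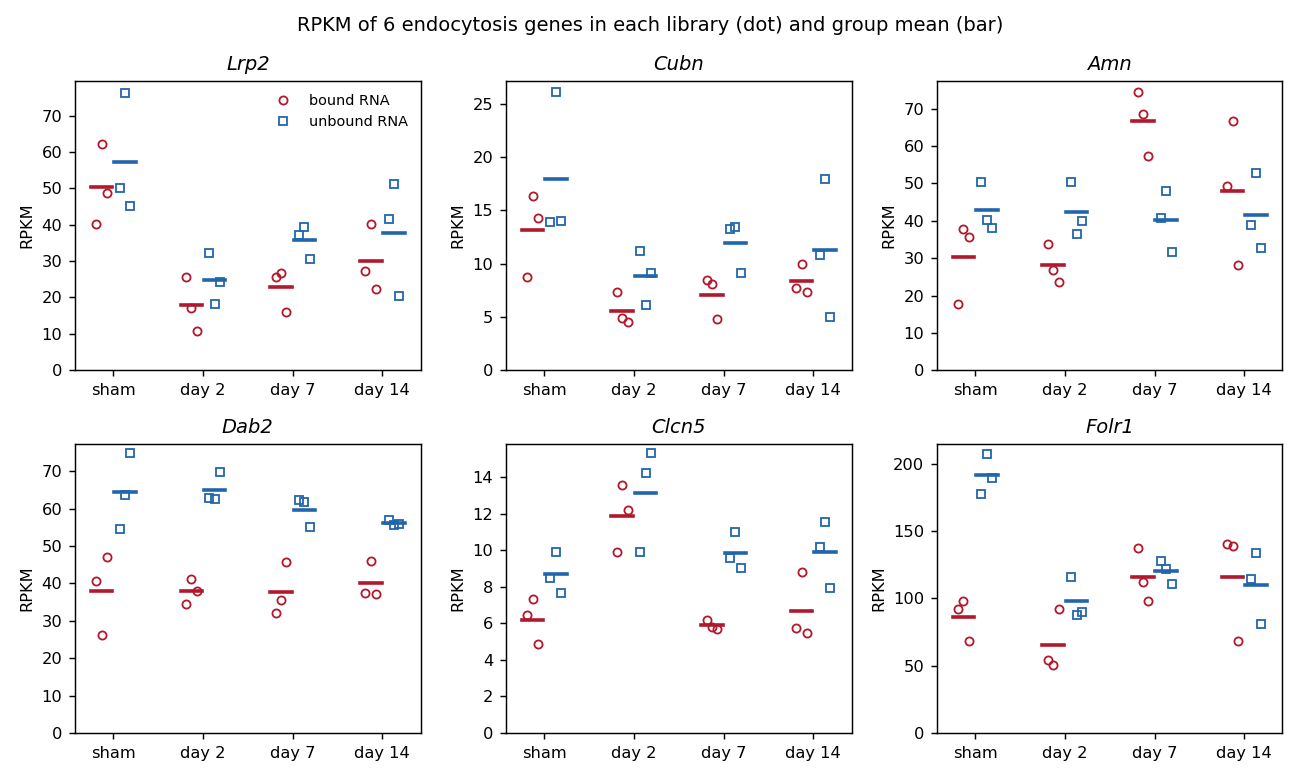
RPKM (linear axis) of each of the 6 genes in every library, bound RNA as circles and unbound RNA as squares, with bars at the group mean of 3. Lrp2 and Cubn are lower at day 2 than in sham mice in both fractions, Amn has its highest bound values at day 7 (57.2 to 74.6), and bound Dab2 lies below unbound Dab2 at each time.

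Cubn moved the same way as Lrp2 at a lower level. Its bound libraries held 8.75, 16.4 and 14.3 RPKM in sham mice, 7.30, 4.92 and 4.55 at day 2, 8.45, 8.10 and 4.76 at day 7, and 7.72, 10.0 and 7.34 at day 14. Bound day 2 and day 7 did not overlap sham, and day 14 did. The bound log2 change at day 2 was -1.14 (SE 0.37, adjusted p = 0.0316). At day 7 and day 14 it was -0.84 and -0.59 and did not pass (adjusted p = 0.104 and 0.285). Scaled to equal RPKM totals, the day 7 change was -1.19 and passed (adjusted p = 0.0238). In unbound RNA the values were 13.9, 26.1 and 14.0 RPKM in sham mice, 11.2, 6.14 and 9.08 at day 2, 13.3, 13.5 and 9.10 at day 7, and 10.8, 18.0 and 4.96 at day 14. The unbound day 2 change of -0.97 did not pass (adjusted p = 0.0788). The 3 values lay below each sham value, a separation with no share of all genes to set beside it. The day 2 bound call was lost without sham bound library 2 (-0.97, adjusted p = 0.119) or 3 (-1.06, 0.0669), or day 2 bound library 2 (-1.07, 0.111) or 3 (-1.02, 0.116). With day 14 mouse 3 left out of both fractions, Cubn passed at day 7 in bound RNA (adjusted p = 0.0497) and at day 2 in unbound RNA (adjusted p = 0.0322).

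**Figure D2:**
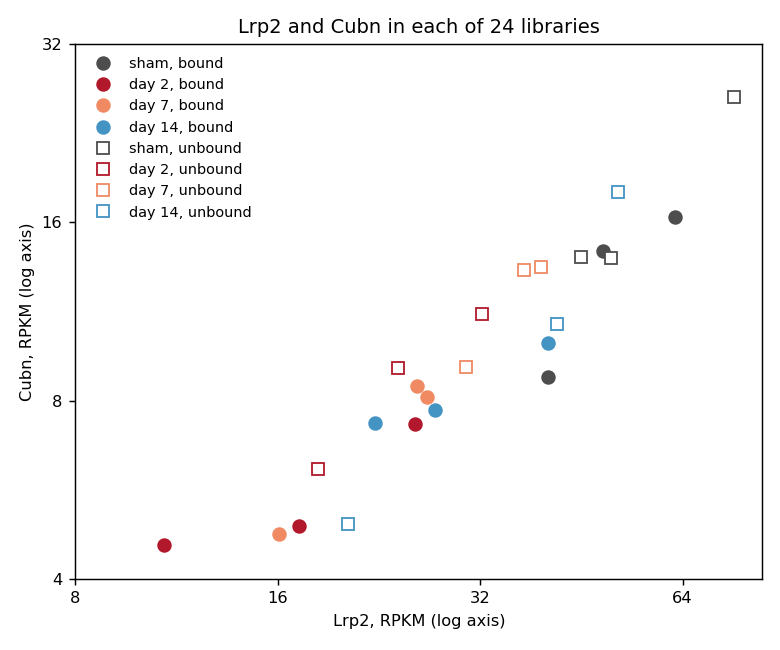
Cubn against Lrp2 in each of the 24 libraries, in RPKM on log axes, filled circles for bound and open squares for unbound RNA, coloured by time. The points run along 1 band from day 2 bound library 3 (10.9 and 4.55 RPKM) to sham unbound library 2 (76.3 and 26.1 RPKM).

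The plot of Cubn against Lrp2 shows how closely the receptor genes ran together. Across 24 libraries Pearson's r of log2 (RPKM + 0.5) was 0.945, and it was 0.916 for deviations from the 8 group means, as a description with no test, since bound and unbound libraries share mice. Lrp2 correlated with Amn at 0.195, and at 0.715 in deviations from the group means. Among all tested genes, those most like Lrp2 were Cubn (0.945), the mitochondrial glutaryl-CoA dehydrogenase Gcdh (0.917) and the carbonic anhydrase Car14 (0.915). Cubn was nearest to Lrp2, then to Pm20d1 (0.886) and to the cobalamin carrier transcobalamin, Tcn2 (0.876). Mean Tcn2 was 480 RPKM in sham bound RNA and 173 at day 2, and 708 and 226 in unbound RNA.

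Amn, whose product anchors cubilin, did not follow the course of Cubn over the times in bound RNA. Over 24 libraries Amn correlated with Cubn at 0.245, and at 0.672 in deviations from the group means. Bound libraries held 17.7, 37.9 and 35.6 RPKM in sham mice, 33.8, 26.8 and 23.6 at day 2, 74.6, 68.6 and 57.2 at day 7, and 49.3, 66.7 and 28.1 at day 14. Every day 7 value lay above every sham and day 2 value. At day 2 the log2 change against sham was -0.05 (95% interval -0.67 to 0.57), and at day 7 it was 1.19 (SE 0.30, adjusted p = 0.00748), a 2.28-fold rise. Day 7 was also higher than day 2, by 1.24 (adjusted p = 0.0143). Unbound RNA showed no such rise: 50.5, 40.1 and 38.2 RPKM in sham mice, 50.3, 36.5 and 40.0 at day 2, 40.8, 48.0 and 31.7 at day 7, and 39.0, 52.8 and 32.7 at day 14, with log2 changes from -0.11 to -0.02 that did not pass. At day 7 the bound change exceeded the unbound change by 1.30, which did not pass with libraries taken as unpaired (SE 0.42, adjusted p = 0.157) and passed with the mouse as a block (SE 0.34, adjusted p = 0.0434). Sham bound library 1 was low, and without it the day 7 change was 0.85 (adjusted p = 0.0585). The rise from day 2 to day 7 was lost without day 2 bound library 2 (1.22, adjusted p = 0.0538), day 7 bound library 1 (1.16, 0.0608) or day 7 bound library 2 (1.22, 0.0550). At day 14 the bound change was 0.64 (adjusted p = 0.149), and 0.98 without bound library 3 of that day (adjusted p = 0.0242). Without that library day 14 was also above day 2 (1.03, adjusted p = 0.0219, against 0.69 and 0.185 with it).

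Dab2, the adaptor, was called lower in bound than in unbound RNA in sham mice and at day 2, and did not change detectably between times. Bound libraries held 40.6, 26.2 and 47.1 RPKM in sham mice, 34.6, 41.1 and 38.1 at day 2, 31.98, 35.6 and 45.6 at day 7, and 37.4, 46.1 and 37.1 at day 14. Unbound libraries held 54.6, 63.6 and 74.97, then 62.9, 62.6 and 69.9, then 62.3, 61.9 and 55.1, and then 57.0, 55.7 and 55.9. The largest change against sham was -0.18 in unbound RNA at day 14 (95% interval -0.59 to 0.23), and the day 2 bound interval ran from -0.37 to 0.45. Bound Dab2 was below unbound Dab2 in 12 of 12 mice, with no count over all genes to set beside it.

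Clcn5 went the other way from Lrp2 at day 2. Bound libraries held 6.45, 7.32 and 4.87 RPKM in sham mice, 9.92, 13.6 and 12.2 at day 2, 6.21, 5.82 and 5.67 at day 7, and 5.74, 8.80 and 5.49 at day 14. The 3 day 2 values lay above the other 9 bound values. The rise at day 2 was 0.89 (SE 0.22, adjusted p = 0.00643), and the level fell by day 7 (-0.95 against day 2, adjusted p = 0.0106) and was lower at day 14 than at day 2 (-0.81, adjusted p = 0.0257). Day 7 differed from sham by -0.05 (95% interval -0.50 to 0.40). Unbound libraries held 8.46, 9.91 and 7.68 RPKM in sham mice, 9.90, 14.2 and 15.3 at day 2, 9.59, 11.02 and 9.04 at day 7, and 10.2, 11.6 and 7.92 at day 14, and the day 2 change of 0.56 did not pass (adjusted p = 0.0867). Without day 2 unbound library 1 it was 0.74 and passed (adjusted p = 0.0362). The median of all tested genes was 0.16 above sham in bound RNA at day 2. With libraries rescaled to remove that shift the Clcn5 rise was 0.68 (adjusted p = 0.0587). The day 7 fall was lost without day 2 bound library 2 (-0.85, adjusted p = 0.0590). The day 14 fall was lost without day 2 bound library 2 (-0.71, 0.123) or 3 (-0.79, 0.0531), or day 14 bound library 1 (-0.72, 0.121) or 3 (-0.69, 0.0508).

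Folr1 fell in total kidney at day 2 and showed another course in bound RNA. Unbound libraries held 177, 207 and 190 RPKM in sham mice, 116, 87.9 and 89.7 at day 2, 128, 122 and 110 at day 7, and 115, 134 and 80.9 at day 14, so each value after injury lay below each sham value. The log2 change was -0.97 at day 2 (SE 0.27, adjusted p = 0.02), and -0.67 and -0.83 at day 7 and day 14, which did not pass (adjusted p = 0.248 and 0.112). Bound libraries held 92.0, 98.0 and 68.2 RPKM in sham mice, 54.1, 50.3 and 92.1 at day 2, 137, 112 and 98.2 at day 7, and 140, 139 and 68.3 at day 14. Bound day 7 lay above sham without overlap, by 0.43, which did not pass (adjusted p = 0.268), and day 2 and day 14 overlapped sham. The share of all tested genes without overlap was not counted. Bound day 7 also lay above bound day 2 without overlap, by 0.86 (adjusted p = 0.0603), a difference that passed without sham bound library 3 (adjusted p = 0.0474), day 2 bound library 3 (1.13, 0.0146) or day 14 bound library 3 (0.0211). Day 14 was 0.80 above day 2 (adjusted p = 0.0865), and this passed without day 2 bound library 3 (1.07, 0.0204) or day 14 bound library 3 (1.14, 0.00547). The bound change exceeded the unbound change by 1.10 at day 7 and 1.20 at day 14. Neither passed unpaired (adjusted p = 0.184 and 0.155), and both passed with the mouse as a block (adjusted p = 0.0465 and 0.0333). The unbound day 2 call was lost without sham unbound library 2 (-0.91, adjusted p = 0.0674) or 3 (-0.98, 0.0578), or day 2 unbound library 2 (-0.90, 0.0916) or 3 (-0.92, 0.0682). Without day 14 mouse 3 in both fractions the bound day 14 change was 0.71 (adjusted p = 0.0434). Leaving out only its bound library gave a day 14 change difference of 1.54 (adjusted p = 0.0106) and, through the shared spread, an unbound day 14 change that passed (-0.83, adjusted p = 0.0344).

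**Figure D3:**
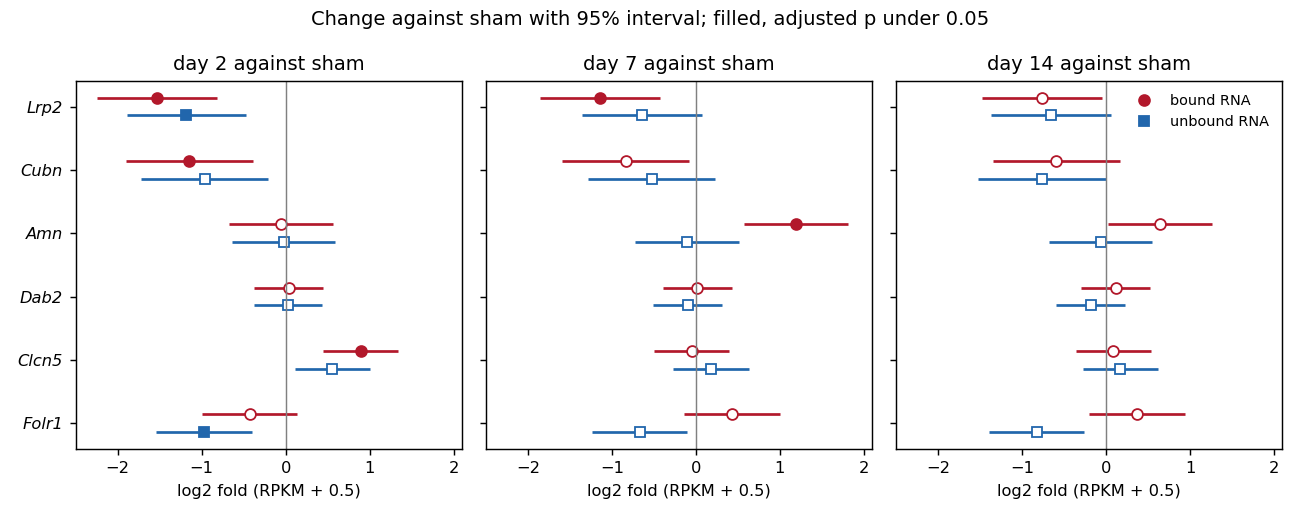
Fitted log2 change against sham at each day, with 95% intervals, for bound (circles) and unbound RNA (squares); filled symbols have an adjusted p under 0.05. Lrp2, Cubn and Clcn5 are filled in bound RNA at day 2 (-1.53, -1.14 and 0.89), Lrp2 and Folr1 in unbound RNA at day 2, Lrp2 and Amn in bound RNA at day 7, and no symbol at day 14.

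Counted together, 3 of the 6 genes passed in bound RNA at day 2 against sham (1 higher, 2 lower), where 19.8% of the 13721 tested genes did, 13.3% higher and 6.48% lower. Fitted to the sham and day 2 bound libraries alone, none of the 3 passed (adjusted p = 0.0661 for Lrp2, 0.107 for Cubn and 0.124 for Clcn5, with the same log2 changes). At day 7 there were 2 (1 higher, 1 lower), with 22.7% of all genes called, 15.2% higher and 7.55% lower, and at day 14 none (13.3%). Unbound RNA gave 2 at day 2, both lower (14.8% of all genes, 5.04% lower), and none at day 7 (1.09%) or day 14 (1.23%). Between days, 2 passed in bound RNA from day 2 to day 7 (Amn higher and Clcn5 lower; 7.09% of all genes, 3.56% higher and 3.53% lower). In the same fraction 1 passed from day 2 to day 14, Clcn5, lower (6.64% of all genes, 3.4% lower), and none from day 7 to day 14 (0%). Unbound RNA gave none from day 2 to day 7 (3.51%), from day 7 to day 14 (0.00729%) or from day 2 to day 14 (4.95%). The median of all tested genes stood above sham by 0.13 to 0.18 in bound and 0.18 to 0.22 in unbound RNA. Of all calls, 67.3% were higher in bound RNA at day 2, 66.8% at day 7 and 66% in unbound RNA at day 2, and with median-ratio rescaling these shares were 47.2%, 47.2% and 50.2%. Scaling to equal RPKM totals gave 53.6%, 34.8% and 67.5%. None of the called changes of the 6 genes turned direction under any scaling. A test of any difference over the 4 times passed for Lrp2, Amn and Clcn5 in bound RNA (adjusted p = 0.0121, 0.00921 and 0.00683, with 27% of all genes called) and for none of the 6 in unbound RNA (9.82% of all genes).

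Bound and unbound RNA of equal number, taken as the same mouse, can be set side by side. In sham mice 2 of the 6 genes were lower in bound RNA, where 27.6% of all genes differed and 12.9% were lower: Folr1 by -1.16 (SE 0.27, adjusted p = 0.00382) and Dab2 by -0.78 (SE 0.20, adjusted p = 0.00586). Bound Folr1 was 36.0% to 51.9% of unbound Folr1 in the 3 sham mice, 88.9% to 107% at day 7 and 84.5% to 122% at day 14. The Folr1 sham difference passed in 36 of 36 other settings. Fitted to the sham libraries alone, the Dab2 sham difference did not pass (adjusted p = 0.0754). It was -0.35 and did not pass when libraries were scaled to equal RPKM totals (adjusted p = 0.179). That scaling moved the median difference of all genes from 0.01 to 0.36, and the share of calls that were higher in bound RNA from 53.1% to 81.2%. At day 2 Dab2 differed by -0.77 (adjusted p = 0.0471, with 1.68% of all genes called and 0.503% lower), a call that was lost in 24 of 36 other settings. It was lost without any one of the unbound libraries, sham bound library 1, day 2 bound library 1 or 2, any day 7 bound library or day 14 bound library 1, the highest adjusted p being 0.180 (-0.71, without day 2 bound library 1). At day 7 none of the 6 passed unpaired (2.35% of all genes), and with the mouse as a block Clcn5 (-0.69, adjusted p = 0.0109) and Dab2 (-0.67, adjusted p = 0.0355) did. The share of all genes that passed with the block is not given here, so calls with the block stand without a background. The unpaired Dab2 value at day 7 also passed without sham bound library 2 or 3 (adjusted p = 0.0390 and 0.0432). In sham mice the block also brought Clcn5 past the threshold (-0.46, adjusted p = 0.0255). At day 14 none of the 6 passed (0.816%). Bound was below unbound in 11 of 12 mice for Clcn5, 10 for Lrp2, 10 for Cubn, 8 for Folr1 and 7 for Amn. How many of all tested genes were below in as many mice was not counted. For Amn at day 7 bound was above unbound in each of the 3 mice, at 143% to 183%. None of the 6 had an unpaired difference between the bound and unbound changes that passed at day 2, 7 or 14 (0%, 0.146% and 0.197% of all genes).

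Each gene can also be read against Lrp2 in the same library. Lrp2 is the denominator of each such ratio and was itself lower after injury, so the ratios restate that fall in part: bound Dab2 changed by 0.04 at day 2, and its ratio by 1.57. The mean log2 ratio of Clcn5 to Lrp2 in bound RNA was -2.92 ± 0.33 (SD, n = 3) in sham mice and -0.50 ± 0.76 at day 2. The ratio of Amn to Lrp2 went from -0.78 ± 0.36 in sham mice to 1.55 ± 0.23 at day 7, with Amn below Lrp2 in each sham library and above it in each day 7 library. In bound RNA Cubn to Lrp2 moved less than the other 4 ratios, from -1.92 ± 0.21 in sham mice to -1.54 ± 0.32 at day 2. Of 30 such comparisons with sham, 19 showed no overlap, each with the ratio above sham. How many of all tested genes would show the same against Lrp2 was not counted, so the 19 cannot be read as a trait of these genes. With 3 against 3 libraries the exact permutation test (two-sided) can give no p below 0.1, and the adjusted value for these 19 was 0.158, so none passed.

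**Figure D4:**
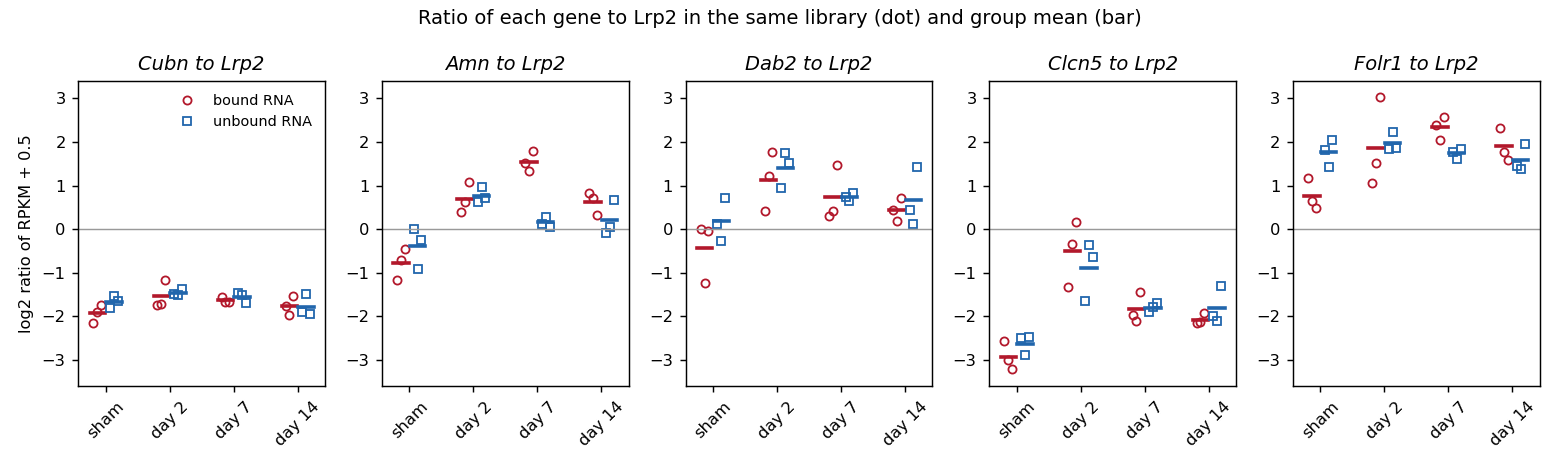
Log2 ratio of each of the other 5 genes to Lrp2 in the same library (RPKM + 0.5), bound RNA as circles and unbound RNA as squares, with bars at the mean of 3. Clcn5 is nearest to Lrp2 at day 2 and Amn is highest at day 7 in bound RNA, while Cubn keeps a nearly level line.

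Exon length moved with the bound results. In bound RNA at day 7 the median log2 change of all tested genes was 0.48 for genes with up to 2 kb of exon, 0.26 for 2 to 4 kb, 0.02 for 4 to 8 kb and -0.14 above 8 kb. Amn is in the first of these classes, and Lrp2, Cubn and Clcn5 are in the last. At day 2 the same medians were 0.28, 0.18, 0.13 and 0.08, and in unbound RNA at day 2 they rose with length, from 0.12 to 0.27. With the length trend removed, Lrp2 and Cubn stayed called in bound RNA at day 2 and Clcn5 did too, while at day 7 Lrp2 was -0.93 (adjusted p = 0.104) and Amn 0.74 (adjusted p = 0.110). Amn from day 2 to day 7 was then 1.07 (adjusted p = 0.0502), and Clcn5 fell by 0.72 from day 2 to both day 7 and day 14 (adjusted p = 0.0959 and 0.101). In sham bound against unbound RNA the median difference of all genes rose with length, from -0.43 up to 2 kb to 0.33 above 8 kb. With the trend removed, Clcn5 in that comparison became -0.82 (adjusted p = 0.0241).

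**Figure D5:**
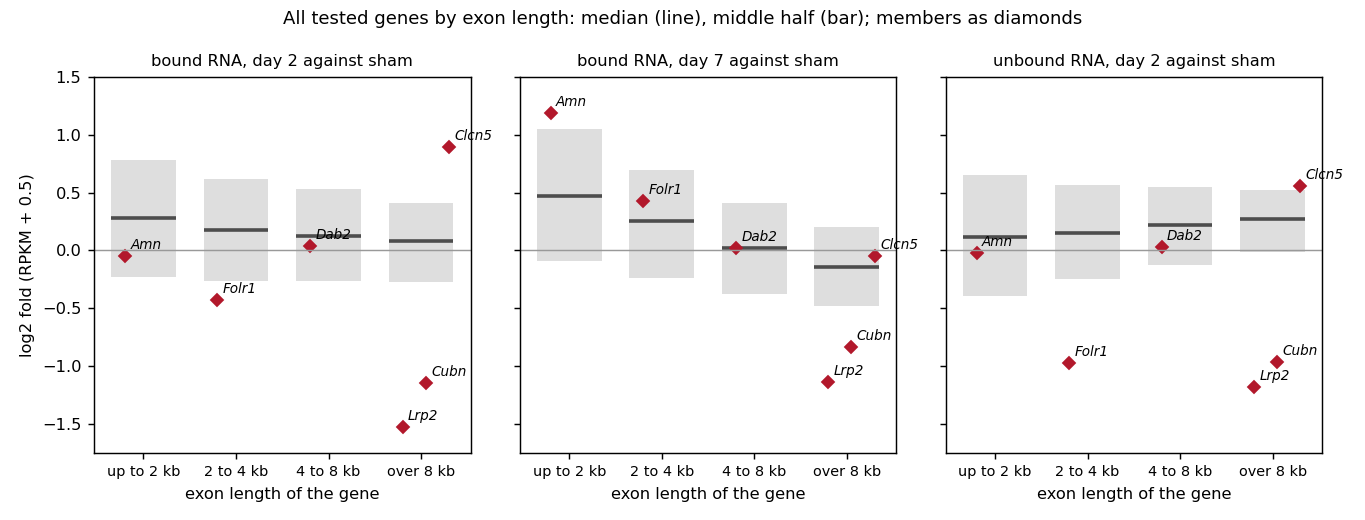
Log2 change against sham of all tested genes by exon length class, with the median as a line and the quartiles of genes as a grey bar, and the 6 genes as diamonds at their own values. At day 2 Lrp2, Cubn and Clcn5 lie outside the grey bar of their class in both fractions, and at day 7 Amn lies above its bar, whose median is 0.48.

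The genes that work with these receptors were followed in 7 lists of 93 genes, 91 of which were tested (Slc9a3 and Lrp5 were not). In bound RNA 11 rose and 10 fell at day 2, or 23.1% against 19.8% of all genes, and 10 rose and 12 fell at day 7, 24.2% against 22.7%. The shares at day 14 (9 rose, 5 fell) and in unbound RNA at day 2 (7 rose, 6 fell) were 15.4% and 14.3%. These shares are close to the background, and the counts of single lists that follow stand beside the same background: in bound RNA at day 2, 13.3% of all genes rose and 6.48% fell, and at day 7, 15.2% rose and 7.55% fell. Each list's median log2 change in bound RNA at day 2 lay between -0.05 and 0.45, beside 0.16 for all tested genes.

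Of 8 chaperones and adaptors, 1 fell and none rose in bound RNA at day 2. It was the motor myosin VI (Myo6, -1.88), with means of 488 RPKM in sham bound and 212 in day 2 bound RNA beside 18.2 and 20.4 in unbound RNA. Lrpap1, the chaperone that escorts megalin through the endoplasmic reticulum, fell in unbound RNA at day 2 (-1.63, from a mean of 198 to 66.6 RPKM) and rose in bound RNA from day 2 to day 7 (1.29). Slc9a3r1, a brush border scaffold, rose in bound RNA at day 7 (1.34) and day 14 (0.80). Of 12 clathrin coat and AP-2 genes, Clta (0.83) and Picalm (0.72) rose at day 2. Both were also higher at day 7 (1.37 and 1.09) and day 14 (1.05 and 0.82), while the AP-2 subunit Ap2m1 was lower at day 14 (-0.88).

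Of 17 early and recycling endosome genes, 2 rose and 2 fell in bound RNA at day 2, among them the recycling GTPase Rab11a (0.65) and the lipid kinase Pik3c3 (-1.17). Of 17 tested genes of endosomal acidification and chloride transport, 1 rose and 3 fell: the endosomal exchanger Slc9a8 (-2.01) and the proton pump subunits Atp6v1a (-1.39) and Atp6v1b2 (-0.83). Slc9a8 fell in unbound RNA as well (-2.19) and rose again in bound RNA by day 7 (2.48 against day 2). The pump subunits were lower at day 7 (-1.35 and -0.98) and day 14 (-1.04 and -0.77). Their sham means were 466 and 152 RPKM in bound RNA, beside 150 and 65.3 in unbound RNA. In day 2 unbound RNA the means were 142 and 67.2. Other subunits did not all fall: mean Atp6v1c1 was 66.1 RPKM in sham bound and 137 in day 7 bound RNA. Of the tested list, 1 rose and 2 fell in bound RNA at day 7. In the lysosomal list 3 of 12 rose and 1 fell at day 2, led by the cathepsins Ctsl (1.29), Ctsb (1.10) and Ctsd (0.89). At day 7 the lysosomal membrane proteins Lamp1 (1.44) and Lamp2 (0.90) rose. In sham mice 8 of these 12 genes were lower in bound than in unbound RNA and none higher, with Lamp2 at -1.70, where 12.9% of all genes were lower.

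Among 14 genes for the handling of ligands, the vitamin D 24-hydroxylase Cyp24a1 rose at day 2 in bound (3.58) and unbound RNA (4.05), from means of 18.0 and 12.2 RPKM to 193 and 194, and fell by day 7 in bound RNA (-3.10). Tcn2 fell at day 2 in both fractions (-1.50 and -1.69), and so did Fpgs, which retains folate in the cell, in bound RNA (-0.93). The proton-coupled folate transporter Slc46a1 fell in unbound RNA (-1.11). B2m, a filtered ligand that most cells also make, rose in bound RNA at day 7 (2.01) and day 14 (1.68). Among 11 tested relatives of megalin, Lrp8 (1.21) and Lrp10 (0.65) rose at day 2, Lrp8 from a mean of 0.117 to 0.987 RPKM. At the other times mean Lrp8 was 0.0655 to 0.203 RPKM over both fractions. Only day 2 libraries could bring it past the filter of 1 RPKM, so its day 2 rise is not separate from its being tested. Lrp4 (-1.50), Sort1 (-1.23) and Sorl1 (-0.92) were among 4 that fell at day 7.

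Markers of cell types moved beside these genes. In bound RNA at day 2, 4 of 15 proximal tubule markers fell and none rose (median -0.56, where 6.48% of all genes fell), with summed levels of 4330 to 11520 RPKM, and in unbound RNA 6 fell (median -1.17), with sums of 8073 to 17130, where 5.04% of all genes fell. At the same day each of the 4 tested neutrophil markers rose in bound RNA (median 3.00), with summed levels of 1.94 to 12.2 RPKM in sham mice and 18.6 to 103 at day 2, and 3 of 4 rose in unbound RNA (median 2.92). Of 9 fibroblast and pericyte markers, 4 rose and none fell in each fraction (medians 1.42 in bound and 1.55 in unbound RNA), with sums of 36.3 to 40.9 RPKM in sham bound and 127 to 642 in day 2 bound RNA. Of all 13721 tested genes, 13.3% rose at day 2 in bound RNA and 1339 genes rose in unbound RNA. The neutrophil markers Cxcr2 and Ly6g did not pass the filter. Whether the 4 tested ones would have passed it without the day 2 libraries was not checked. Their rise may therefore not be separate from their being tested. Of 5 distal convoluted tubule markers, 3 fell in bound RNA (median -1.03) and 2 in unbound RNA (median -0.96). At day 7, where Amn rose and Lrp2 was lower in bound RNA, 2 proximal markers rose and 2 fell, and 6 of 11 tested macrophage markers rose and none fell (sums of 167 to 310 RPKM in sham mice and 947 to 1534 at day 7). None of the 12 macrophage markers was at 0 in any group. In the same comparison 4 of 7 podocyte and parietal cell markers and 5 of 6 tested principal cell markers fell, where 7.55% of all genes fell and 15.2% rose. The part of these cell types in the values of the 6 genes was not tested.

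The other members had their own nearest neighbours across the 24 libraries, again as a description by Pearson's r. Folr1 ran most like the brush border enzyme Ggt1 (0.948), Prss8 (0.932) and Tcea3 (0.929). Clcn5 ran most like Hook1 (0.891), Igsf11 (0.884) and Fam126b (0.876), and mean Igsf11 was 10.3 RPKM in sham bound RNA and 31.0 at day 2. Dab2 was nearest to Snap23 (0.887), Tmx2 (0.884) and Enpp5 (0.855), and Amn to Ttc36 (0.807), Tspan5 (0.752) and Mrps35 (0.744). Mean Ttc36 in bound RNA was 120 RPKM in sham mice, 70.0 at day 2, 1117 at day 7 and 923 at day 14. In unbound RNA it was 413 in sham mice, 135 at day 2, 103 at day 7 and 541 at day 14.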

How the data were processed

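RNA bound to EGFP-L10a ribosomes and unbound RNA were sequenced in 24 libraries, 8 groups of 3. They are counted as 12 mice, with equal numbers of both fractions taken as 1 mouse. The deposited values are RPKM, made by the authors with STAR 2.0.4b, featureCounts 1.4.5 and edgeR, per the submitters' processing notes. For build and strand setting, the sources used here give nothing. The table has 41831 lines, of which 1081 identical repeats were dropped. Depth was inferred from the spacing of low values: 73.7% to 78.0% of values up to 50 reads were whole within 0.02 reads, where 4% would be by chance. It bears on precision only, since RPKM, not counts, were tested.

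The model was limma 3.58.1 (R 4.3.3) on log2 (RPKM + 0.5), with a mean for each of the 8 groups and variances that follow abundance. It covered the 13721 genes that reached 1 RPKM in 3 or more libraries. P values were adjusted by Benjamini-Hochberg over all tested genes within each of 19 comparisons and 2 F-tests, and a gene passed at an adjusted p under 0.05. Each fold change is on the log2 (RPKM + 0.5) scale and understates the change of low genes. Same-numbered bound and unbound libraries deviated together in 12 of 12 pairs (r 0.268 to 0.670 over genes), so a fit with the mouse as a block was made for the fractions. The labels give the number and do not say that it marks a mouse. For the fractions and the differences of changes, shares of all genes called are from the unpaired fit only.

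The 6 genes and all lists were chosen with earlier results of these data known. Named list genes are among the 3 with the smallest p of their list in that comparison. The 3 nearest neighbours of each of the 6 genes are named by Pearson's r over 24 libraries. Alternatives were another pseudocount, no filter, other scalings, fits to fewer groups, no abundance trend, the block, each library left out, and, chosen after seeing the data, removal of a length trend and of day 14 mouse 3.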

Additional observations from a re-analysis of the deposited data

Results flagged for a closer look

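The difference between the bound and unbound change passed for Amn at day 7 (1.30, SE 0.34, adjusted p = 0.0434), for Folr1 at day 7 (1.10, SE 0.29, adjusted p = 0.0465) and for Folr1 at day 14 (1.20, SE 0.29, adjusted p = 0.0333) by limma with the mouse as a block. These are log2 differences of 3 mice a group, in which the bound fraction went up relative to the unbound fraction.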

How the results depend on the processing

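No value for the 6 genes changed direction under any setting while called. Counts of the 6 genes that passed moved as follows. The number of all genes called moved with the setting too. It is not given beside each count, so a moved count cannot be read as a trait of the 6 genes. For the sham fractions, 2008 of all genes were higher and 1775 lower in the main fit. With equal RPKM totals these were 3667 and 851. Bound day 2 against sham gave 2 in place of 3 with no filter, median-ratio rescaling and quantile normalization. With no filter, unbound day 2 against sham gave 1 in place of 2, and bound against unbound at day 2 gave 0 in place of 1. That day 2 fraction count was also 0 with median-ratio rescaling, equal RPKM totals, no abundance trend and a fit to only the groups compared. Bound day 14 against day 2 gave 0 in place of 1 with median-ratio rescaling, quantile normalization, only the groups compared and the length trend removed. Equal totals gave 1 for bound day 14 against sham, 1 for the sham fractions, 3 for bound day 7 against sham, and 4 and 1 for any difference over time in bound and unbound RNA, and quantile normalization gave 1 for the day 7 fractions. With only the groups compared, bound day 2 against sham gave 0 in place of 3, bound day 7 against day 2 gave 1, unbound day 7 against sham 1, the sham fractions 1, the day 7 fractions 3, the day 7 difference of changes 1, and any difference over time 0 in bound and 1 in unbound RNA; fewer libraries then estimate the spread.

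The replicate block is the mouse for the fractions, and there the sham fractions gave 3, the day 7 fractions 2, and the differences of changes 2 at day 7 and 1 at day 14. Between times the numbers come from different mice and do not pair them. A separate fit with the number as a term there gave 3 for unbound day 2 against sham, 3 for bound day 7 against day 2, and 4 and 1 for any difference over time in bound and unbound RNA: Clcn5 passed in unbound RNA at day 2 (0.56, adjusted p = 0.0464) and Folr1 in bound RNA from day 2 to day 7 (0.86, adjusted p = 0.0498). With the length trend removed, bound day 7 against sham gave 0, bound day 7 against day 2 gave 0, the sham fractions 3 and any difference over time in bound RNA 1. Without day 14 mouse 3 the counts were 3 for bound day 7 against sham, bound day 7 against day 2 and unbound day 2 against sham, 2 for bound day 14 against sham, 3 for bound day 14 against day 2, 1 for the day 7 fractions, 1 for the day 14 difference of changes, and 5 and 2 for any difference over time in bound and unbound RNA. Leaving out 1 library at a time gave 2 to 3 for bound day 2, 1 to 2 for bound day 7, 0 to 1 for bound day 14, 0 to 3 for bound day 7 against day 2, 0 to 2 for bound day 14 against day 2, 0 to 3 for unbound day 2, 0 to 1 for unbound day 14, 2 to 2 for the sham fractions, 0 to 1 for the day 2 and day 7 fractions and the day 14 difference of changes, 2 to 4 and 0 to 1 for any difference over time in bound and unbound RNA, and 19 to 21 for ratios to Lrp2 without overlap (18 and 20 with a pseudocount of 0.1 and 1). The other comparisons gave 0 to 0.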
